A study of Mus musculus with 2 samples.

Results

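The genes described here are 9 mouse genes of the early response and its feedback, namely the transcription factors Egr1, Egr2, Egr3 and Egr4, the corepressors Nab1 and Nab2, and Ier2, Ier3 and Ier5. Their probes were taken by gene name from the spots that are not controls, and 11 of the 39429 probes on the array carried one of these names. Of the 9 genes, 6 were well above background on both arrays, among 14815 genes measured in this way. The group was chosen by measured values, namely the differences of these genes between the same 2 arrays in earlier work on these data, so the differences are given as a description, with no test.

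RNA was taken from a variant clone of Ba/F3 cells, BaF/3 (#BEB1), and from the parental Ba/F3 cells, and the RNA of each, labelled with cyanine 3, was put on 1 Agilent array of the whole mouse genome. Ba/F3 is a mouse pro-B cell line that depends on interleukin-3, and the parental cells stood as the control. Both lines were kept in RPMI medium with foetal calf serum and mouse interleukin-3, and the sources used here name no other agent given before harvest for the arrays. BaF/3 (#BEB1) is 1 clone, obtained by repeated sorting for binding of the peptide Ecrg4 after infection of Ba/F3 cells with a retroviral cDNA library of the CG4 line, a rat oligodendrocyte precursor line. As a single clone with 1 array, it has no replicate, and a difference from the parental cells cannot be told apart from a difference between any pair of cultures or clones of Ba/F3.

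The 2 kinds of deposited data gave the arrays to opposite cell lines. Array A is the one whose scanner file carries the label of the parental cells, and array B the one whose file carries that of BaF/3 (#BEB1). In the table of log2 values, however, the BaF/3 (#BEB1) column correlated with the signals of array A at r = 0.999996 and of array B at r = 0.982286, and the parental column with array A at r = 0.982285 and with array B at r = 0.999998, across 39429 probes. All differences below are therefore array A minus array B. They read as BaF/3 (#BEB1) minus parental by the table, and the other way round by the labels of the scanner files. Olr1, the gene of the receptor LOX-1 that the study cloned, was brighter on array A by 5.01 on the log2 scale. The array measured RNA of whole cultures, in which fewer cells with a transcript and less of it per cell cannot be told apart.

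Egr factors are zinc finger proteins whose genes are switched on within minutes of a growth factor, cytokine or antigen receptor signal, largely through the Ras-ERK pathway and the serum response factor SRF, without new protein synthesis. They bind GC-rich DNA and switch on later genes, among them those of their own corepressors. Nab1 and Nab2 bind Egr1, Egr2 and Egr3 and repress their targets, in part by bringing in Chd4 of the NuRD chromatin complex, which closes a feedback loop. The Ier genes belong to the same early wave, but their proteins are not related to Egr factors.

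The probes that carried the result are shown first, by their opening 30 bases of 60, since the 2 genes with a pair of probes gave unlike readings within a gene. Positions are those of the array design in mm9, each given for the whole probe. No annotation of that build was used here, so the exon or untranslated region under a probe is not given.

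Egr2, chr10:67004798-67004857, plus strand: ccgctgatttgtttggttattagctcttaa

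Nab2 probe 1, chr10:127098009-127098068, minus strand: cctgtcgaacacttagcgtgtctttctttt

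Nab2 probe 2, chr10:127101413-127101472, minus strand: agctgaataagaagctggcgcggagcgtgg

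Ier5 probe 1, chr1:156943530-156943589, minus strand: gcaagggagctgttacttttctactccatc

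Ier5 probe 2, chr1:156945765-156945824, minus strand: acgtggcaaacctcatcagcatcttcgggt

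The Nab2 probes lay 3404 bases apart and were listed for the same 2 RefSeq transcripts. The Ier5 probes lay 2235 bases apart and were listed for the same transcript. The other probes were at chr14:70479222-70479281 for Egr3, chr6:85461153-85461212 for Egr4, chr1:52515132-52515191 for Nab1, chr8:87186214-87186273 for Ier2 and chr17:35959528-35959587 for Ier3, and the Egr1 probe was on chromosome 18.

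The DNA before the transcription start is shown for the Egr factor and the corepressors that were measured, because Egr2 is a known target of SRF and the corepressor genes are known targets of Egr factors. The stretches are 250 bases long, from RefSeq on GRCm38.p6, and 6 of the 9 genes had an entry. Capitals mark 3 of the 8 motifs searched on both strands, the CArG box bound by SRF, the Egr site GCGNGGGCG and the motif TGACG, the core of the cyclic AMP response element.

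Egr2, start 3 of 5, chr10:67537619-67537868, plus strand: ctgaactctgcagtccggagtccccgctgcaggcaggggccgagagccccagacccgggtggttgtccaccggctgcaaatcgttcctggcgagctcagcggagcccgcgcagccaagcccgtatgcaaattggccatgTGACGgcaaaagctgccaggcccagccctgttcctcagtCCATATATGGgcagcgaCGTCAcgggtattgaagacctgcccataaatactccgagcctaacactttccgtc

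Nab1, chr1:52500449-52500698, minus strand: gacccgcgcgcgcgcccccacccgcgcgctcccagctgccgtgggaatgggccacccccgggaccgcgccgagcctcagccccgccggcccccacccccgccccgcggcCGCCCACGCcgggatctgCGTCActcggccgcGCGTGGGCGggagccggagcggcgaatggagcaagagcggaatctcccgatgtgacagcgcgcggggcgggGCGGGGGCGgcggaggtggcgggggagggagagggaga

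Nab2, chr10:127666704-127666953, minus strand: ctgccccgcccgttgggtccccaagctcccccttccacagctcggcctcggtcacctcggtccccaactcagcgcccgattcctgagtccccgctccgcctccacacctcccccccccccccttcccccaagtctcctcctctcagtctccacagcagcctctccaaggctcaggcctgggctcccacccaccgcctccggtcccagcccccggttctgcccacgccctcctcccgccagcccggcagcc

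The Egr2 stretch held a CArG box at −72 to −63 from the start and TGACG motifs at −111 to −107 and −55 to −51. A second, different CArG box lay before start 2 of Egr2, and starts 3, 4 and 5 shared the box shown because their windows overlap. A CArG box was found in 1.63% of 32851 promoter windows of 300 bases. The Nab1 stretch held 3 Egr sites, at −141 to −133, −109 to −101 and −38 to −30, and 5.55% of all windows held at least 1. The Nab1 window was 81.7% G and C, and the share over all windows was not matched for that content. The Nab1 and Nab2 stretches thus differed, since the Nab2 window matched none of the 8 motifs. The other 5 motifs, with their share of all windows, were the full element TGACGTCA (1.79%), which contains TGACG (20.81%), the AP-1 site TGANTCA (7.81%), the ETS site CCGGAA (14.90%), TATAAA (13.62%) and the kappaB site (20.73%). The windows of Ier3 and Ier5 also matched none of the 8, and that of Egr4 held 2 TGACG motifs and 2 kappaB sites. The Egr2 windows, over the 5 starts, also held 3 ETS sites and 1 kappaB site, and the Nab1 window also held 3 kappaB sites and 1 TGACG motif. These matches describe letters in the windows and are not evidence of binding.

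Among the Egr factors, Egr2 was the gene that was measured, and it was far brighter on array A. Egr2, also known as Krox20, directs hindbrain patterning and myelination and is also used by lymphocytes and macrophages. Its probe read 5086 ± 509 on array A against 136 ± 14.6 on array B, in units of processed signal with the error that Feature Extraction gives to a single spot. In units of the 75th percentile of each array, on the log2 scale, this was 1.76 on array A against −2.99 on array B. The difference of 4.74 corresponded to 26.8-fold and its spot error was 0.21. Without any scaling the ratio was 37.3-fold. Of all measured genes, 3 had a larger difference in the same direction.

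The other Egr factors did not stand well above background on array A or array B, so no fold change was formed for them. Egr1, the best known serum-response factor of the family, read 5.40 ± 5.38 on array A against 4.60 ± 4.59 on array B, both of them surrogate values that stand for a spot not distinguishable from its background. Egr4 was at surrogate values too, 6.15 ± 6.12 on array A against 4.99 ± 4.97 on array B. Egr3, which is known for its part in T cell tolerance and in muscle spindles, read 20.8 ± 6.45 on array A against a surrogate 5.001 ± 4.98 on array B. The Egr3 spot thus exceeded its local background on array A but stayed under 27.1, the lowest signal of a spot well above background there. Egr2 was thus the 1 gene of 4 in the Egr family that these probes placed well above background.

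**Figure D1:**
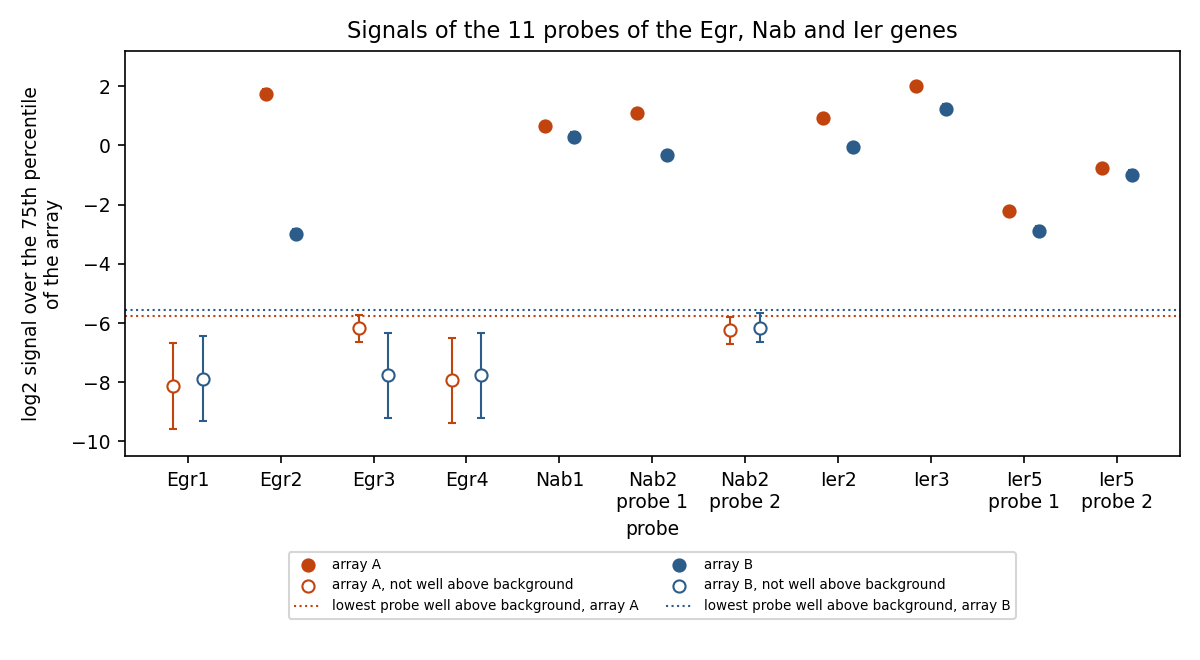
Signals of the 11 probes of the 9 genes on array A (orange) and array B (blue), as log2 of the signal divided by the 75th percentile of all spots. Bars are the spot error of Feature Extraction, open points were not well above background, and dotted lines mark the lowest probe well above background on each array. Egr2 stands 4.74 apart between the arrays, and all 7 filled pairs are higher on array A.

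Both Nab corepressors were measured, and both were brighter on array A, Nab2 by more than Nab1. Nab2 binds Egr factors at their target genes and represses there. Nab2 probe 1 read 3230 ± 323 on array A against 861 ± 86.3 on array B, that is 1.101 on array A against −0.33 on array B on the scaled log2 axis. The difference was 1.43, or 2.69-fold, with a spot error of 0.20, and 195 genes (1.32%) had a larger one. Nab2 probe 2 was near background, with 19.8 ± 6.26 on array A against 15.1 ± 5.17 on array B, and was left out. After scaling, the difference of probe 2 was −0.09, with a spot error of 0.67, so it did not share the direction of probe 1. Its spots exceeded the local background on both arrays without being well above it, and when both probes were averaged the Nab2 difference was 0.67. The Nab2 value at 2-fold or more thus rests on 1 of its 2 probes. Nab1, the second corepressor, read 2381 ± 238 on array A against 1327 ± 133 on array B. Its difference was 0.36, or 1.29-fold, with a spot error of 0.20, and 3448 genes (23.3%) had a larger one.

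All 3 Ier genes were brighter on array A, and none reached 2-fold. Ier2, a nuclear protein of the early serum response, read 2852 ± 285 on array A against 1046 ± 105 on array B. Its difference of 0.97, or 1.96-fold, was just short of the 2-fold mark, and 612 genes (4.13%) had a larger one. Ier3, also called IEX-1, is known to modulate ERK signalling and cell survival. It read 6005 ± 601 on array A against 2555 ± 256 on array B, a difference of 0.75 or 1.69-fold that 1147 genes (7.74%) exceeded. Both genes had 1 probe each, with a spot error of 0.20 on the difference.

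Ier5, which is known to activate the heat shock factor Hsf1, had 2 probes well above background. Probe 1 read 325 ± 33.2 on array A against 147 ± 15.7 on array B, a difference of 0.67. Probe 2 read 887 ± 89.0 on array A against 544 ± 54.8 on array B, a difference of 0.23. Both were higher on array A, and the mean difference of Ier5 was 0.45, or 1.36-fold, with 2774 genes (18.7%) larger. Each probe's difference had a spot error of 0.21, so that of probe 2 was about the size of its error.

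Over the 9 genes, 2 of the 6 measured, Egr2 and Nab2, differed by 2-fold or more towards array A (brighter there), and 0 towards array B. Over all 14815 measured genes the shares were 3.85% (570 genes) towards array A against 7.30% (1082 genes) towards array B. The 6 had a median difference of 0.86, with a range of 0.36 to 4.74, against a median of −0.02 over all measured genes, of which 48.7% were above 0. Since these differences were known when the group was formed, nothing is read from these counts. All 6 were above 0, and 5 of them lay at or below 1.43, so Egr2 was set apart from the others by more than 3 on the log2 scale.

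**Figure D2:**
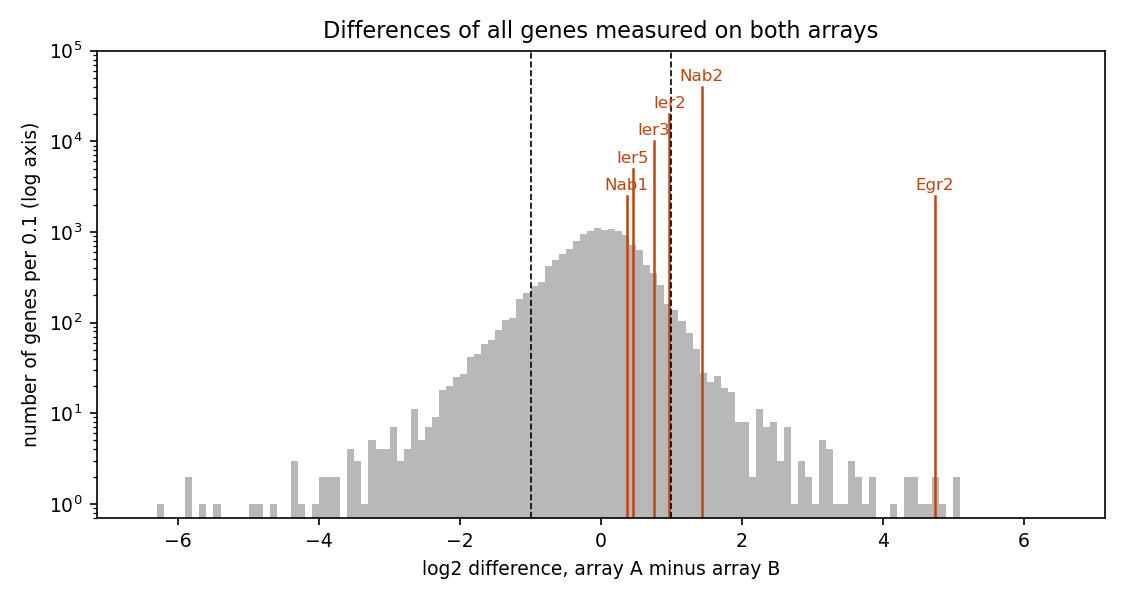
Log2 differences, array A minus array B, of the 14815 genes measured on both arrays in bins of 0.1 on a logarithmic count axis, with lines at the 6 measured genes of the group. Dashed lines mark 2-fold. Nab1, Ier5 and Ier3 lie between 0.36 and 0.75, below the 95th percentile of all genes (0.90), and Ier2 at 0.97, Nab2 at 1.43 and Egr2 at 4.74 lie above it.

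The precision of the spots could be read from 211 probes printed at 10 spots and well above background at each. Between such spots the median SD of the log2 signal was 0.06 on array A against 0.05 on array B, and that of the difference was 0.05, with a 95th percentile of 0.21. This spread covers the printing and reading of 1 array and not the growth, harvest or labelling of the cells, for which there was no replicate.

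The genes whose differences stood next to that of Egr2, over only these 2 arrays, were Olr1 (5.01), the serpin gene Serpinb9f (5.001) and Bcl2a1c of the Bcl2 family (4.86) above it, and Serpinb9e (4.72), Hkdc1 (4.66) and the chemokine gene Ccl4 (4.59) below it. The order was taken over 11888 genes with a symbol. The differences of Bcl2a1c, Serpinb9e, Hkdc1 and Ccl4 lay within the spot error of Egr2, 0.21, so these places are not distinct from that of Egr2, and likeness over 2 arrays is no sign of a shared pattern. Serpinb9f and Serpinb9e, and Bcl2a1c and its relatives, are close copies whose probes may share transcripts.

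Genes next to Egr2 and Nab2 on chromosome 10 were looked up after the values of both genes were seen. Over all measured genes, 3.85% were past 2-fold towards array A and 7.30% towards array B. Within 250 kb of the Egr2 probe there were 4 genes, of which 1 was measured, Ado at 3.4 kb with a difference of 0.22. Within 500 kb there were 4 measured genes of 9, with differences of 0.05 to 0.47. Within 250 kb of Nab2 there were 9 measured genes of 21, with 0 past 2-fold towards array A, 1 towards array B (Ndufa4l2, −1.74) and a median of 0.22. Within 500 kb of Nab2 there were 33 measured genes of 50, with 1 past 2-fold towards array A (Ddit3, 1.66), 4 towards array B and a median of 0.20. Stat6, whose probe lay 0.3 kb from that of Nab2, had a difference of −0.13.

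Genes of the pathway around the Egr, Nab and Ier genes were then described from lists of known members. The lists were chosen with earlier results of these data known. Beside each count below stand the shares over all measured genes, 3.85% past 2-fold towards array A and 7.30% towards array B. The Ras-ERK cascade, which carries receptor signals to the early genes, had 20 of 21 genes measured and 0 past 2-fold in either direction. Its median was −0.06, and values ran between −0.84 for the ERK-activated kinase Mknk2 and 0.63 for Rps6ka3, one of the RSK kinases. These RNA levels say nothing of kinase activity.

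SRF and its cofactors had 6 of 7 genes measured, and all 6 were below 0. Mrtfa, an actin-regulated cofactor of SRF, was at −0.15 on array A against 1.59 on array B, a difference of −1.73 or 3.32-fold higher on array B. The ternary complex factors Elk3, Elk4 and Elk1, which ERK phosphorylates, differed by −0.90, −0.56 and −0.35. Srf itself was level, with a difference of −0.02, and the median of the 6 was −0.45.

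Among 41 other serum-response genes, 29 were measured, with 11 past 2-fold towards array A, 1 towards array B and a median of 0.77. Over all measured genes the shares were 3.85% and 7.30%. Of the 29, 23 were above 0. Btg2, an antiproliferative gene, was at 0.34 on array A against −2.12 on array B, a difference of 2.46. Csrnp1, a nuclear protein of the early response, was at 3.51 on array A against 1.12 on array B, a difference of 2.39. Fos, an AP-1 subunit and, like Egr1, a classical target of SRF, had a probe printed at 10 spots. These read 2668 to 2988 on array A, with a median of 2862, and 509.9 to 565 on array B, with a median of 536, so the spots of the arrays did not overlap, and the difference was 1.92.

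Tnfaip3, a brake on NF-kappaB signalling, was at −2.25 on array A against −3.70 on array B, a difference of 1.44. Zfp36, which encodes an RNA-binding protein that destabilises cytokine mRNAs, was well above background on array A alone. Its signal was 278 on array A against 27.5 on array B. After scaling, the ratio was 7.23-fold towards array A, over a dim signal on array B. The exception in the other direction was Sik1, a salt-inducible kinase gene, at −2.65 on array A against −0.14 on array B, a difference of −2.51. Ier5l, the relative of Ier5, was at −4.31 on array A against −3.85 on array B, so it did not follow the direction of Ier5. A further 9 genes of the list, Atf3 and Nr4a3 among them, did not stand well above background on array A or array B, as was the case for Egr1.

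Genes described as targets of Egr factors had 12 of 16 measured, with 3 past 2-fold towards array A, 1 towards array B and a median of 0.46. Tnf, the cytokine gene, read 2759 to 3083 at its 10 spots on array A, with a median of 2946, and 706 to 769 on array B, with a median of 744. Its difference was 1.50. Nfil3, a bZIP factor, was at 4.58 on array A against 3.21 on array B, a difference of 1.37. Id2, an inhibitor of basic helix-loop-helix factors, was at 2.08 on array A against 0.92 on array B, a difference of 1.16. These genes are targets in other cells, and whether Egr2 acts on them in Ba/F3 was not tested.

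The NuRD complex, which Nab proteins recruit, had all 13 genes measured, with a median of −0.08, 1 gene past 2-fold towards array A and 0 towards array B. That gene was Chd3, at 4.85 on array A against 3.81 on array B, a difference of 1.04. Chd4, the subunit known to bind Nab2, was at 4.11 on array A against 4.52 on array B, a difference of −0.42.

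**Figure D3:**
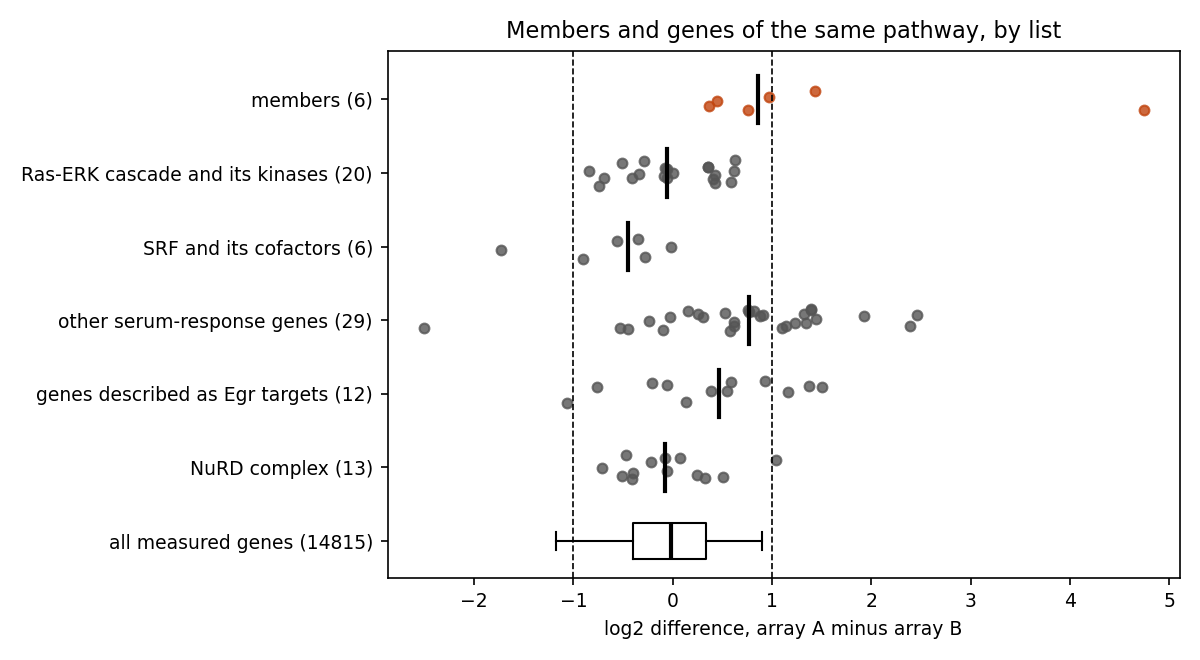
Log2 differences, array A minus array B, of the measured genes of each list (number in parentheses), with the list median as a vertical bar and, below, a box from the 25th to the 75th percentile of all 14815 measured genes with whiskers at the 5th and 95th. Dashed lines mark 2-fold. The Ras-ERK and NuRD lists centre near 0, at −0.06 and −0.08, SRF and its cofactors at −0.45, and the other serum-response genes at 0.77.

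Lineage markers differed between the same arrays, and their part in the values above was not tested. The shares of all measured genes past 2-fold were 3.85% towards array A and 7.30% towards array B. Of 16 pro-B and interleukin-3 dependence markers, 6 were measured, including the interleukin-3 receptor genes Il3ra, Csf2rb and Csf2rb2, while the B-lineage genes Cd79a, Ebf1, Pax5, Il7r, Rag1 and Rag2 did not stand well above background on array A or array B. Of the 6, 4 were past 2-fold towards array B, namely Csf2rb, Csf2rb2 and the B-lineage genes Cd79b (−2.30) and Vpreb1 (−1.39), and 2 were above 0. The median of the 6 was −1.50. Their summed signal was 50.7 on array A against 115 on array B, in units of the 75th percentile. Of the neutrophil markers 5 of 7 measured were past 2-fold towards array B (S100a9, −5.90). Of mast cell markers 3 of 4 were so (Cpa3, −5.44), and of erythroid markers 4 of 4 (Hba-a1, −3.20). The other mast cell marker measured, Hdc, was past 2-fold towards array A (1.67). The summed signals of these lists were 35.2, 13.0 and 9.43 on array A against 58.1, 34.8 and 23.9 on array B. Most of each sum, on both arrays, was 1 gene, namely Csf3r (−0.15), Gata2 (−1.40) and Gata1 (−1.16). Macrophage markers had 1 of 6 past 2-fold towards array A (Fcgr1, 2.23) and 1 towards array B (Cd68, −1.26), with a median of −0.21. They summed to 7.08 on array A against 2.58 on array B, and most of the sum on array A was Fcgr1. T and NK cell markers had 1 of 4 on array A (Cd3d, 1.27) and 0 on array B, with sums of 4.27 on array A against 3.76 on array B. Oligodendrocyte precursor markers, those of the cells that gave the cDNA library, had 0 of 4 on array A against 1 on array B (Cnp, −1.12), with sums of 1.33 on array A against 2.36 on array B.

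The direction of the 6 measured genes was the same under each of 11 other ways of processing, whereas the count at 2-fold was not. Egr2, Nab1, Ier2 and Ier3 each had a single probe without outlier marks. The settings of filter, floor, outlier marks and summary over probes therefore left the values of these genes unchanged by construction. Egr2 ran between 4.22 and 5.03. Nab2 ran between 0.67 and 1.72, and the low value came with a looser filter on dim probes or with none, which brought in probe 2. Ier2 ran between 0.89 and 1.26, Ier3 between 0.67 and 1.05, Ier5 between 0.23 and 0.74 and Nab1 between 0.28 and 0.66. The upper ends came from scaling each array to its median, which moved the median of all genes by 0.29 and put Ier2 and Ier3 past 2-fold as well. With normexp background correction Ier2, at 1.02, also passed it.

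**Figure D4:**
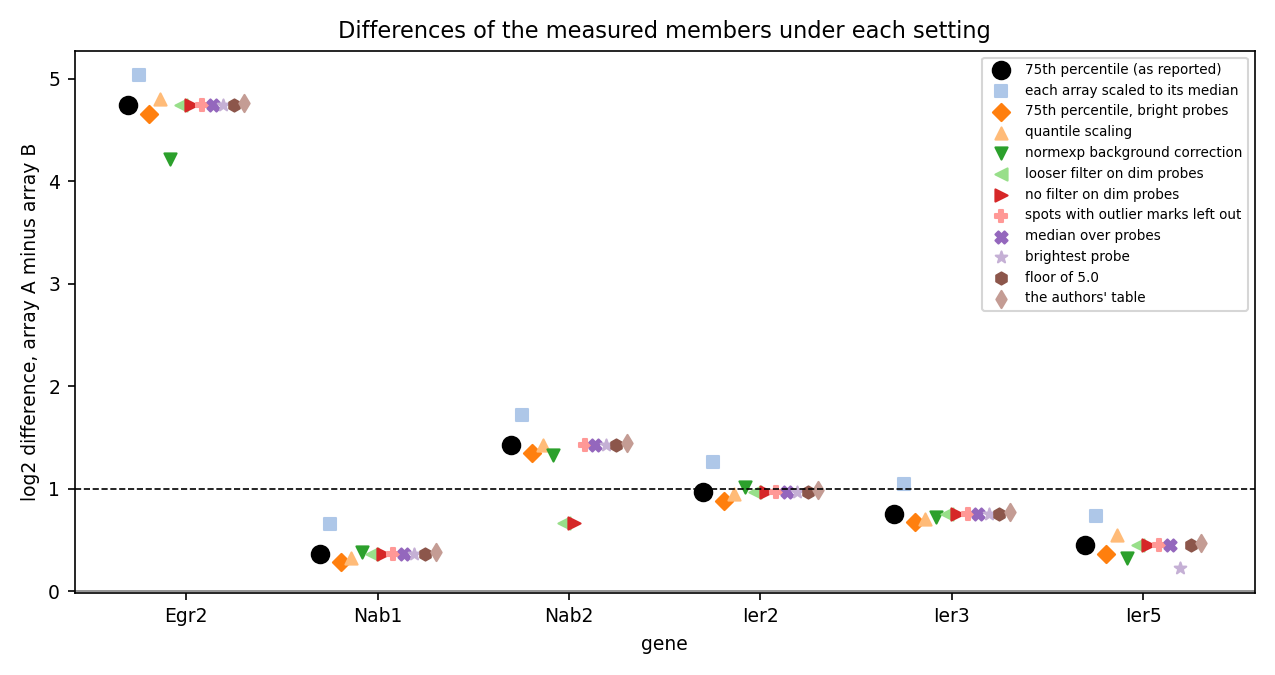
Log2 differences, array A minus array B, of the 6 measured genes as reported (black circles) and under 11 other ways of processing the same arrays. The dashed line marks 2-fold. Egr2 stays above 4 throughout, Nab2 drops to 0.67 where dim probes are kept, and Ier2 and Ier3 cross the line with median scaling.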

How the data were processed

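Per the labels, total RNA of each cell line was labelled with cyanine 3, and there was 1 array for each. The authors' spot intensity was taken with Agilent Feature Extraction 9.5.1.1, which removed local background and trends and gave a surrogate to spots not above background. The deposited table of log2 values was made in GeneSpring GX by scaling to the 75th percentile after a floor of 1.0. It was used as an alternative and to check which array it holds.

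Here, 43020 spots of 39429 probes that are not controls were floored at 1.0 (0 spots lay below), divided by the 75th percentile of each array (1506.0 on array A, 1080.4 on array B) and put on a log2 scale. Of the probes, 49.4% on array A against 49.9% on array B were well above background, and 0 spots were saturated. Spots of a probe were averaged, then the probes of a gene that were well above background on both arrays. Genes well above background on 1 array were given as a bound against the higher of the lowest signal well above background and the probe's own signal on the other array. Where the probe's own signal was the higher, as for Zfp36, the value is a plain ratio over a dim signal. Genes were named through a RefSeq table of GRCm38.p6, and 9249 probes without a match there kept the name of the scanner file. Some of these names are those of transcripts or probes, and each such name counted as a gene. Of the 14815 measured genes, 11888 had a symbol of the RefSeq table.

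With 1 array per cell line no test was possible, and 2-fold is a size and not a significance. The members, the lists and the rule for naming genes were chosen with earlier results of these data known. The rule took all members, up to 4 genes of each list in each direction past 2-fold, bounds past 2-fold, the 3 genes either side of Egr2, Olr1 and lineage markers. Other named list genes (Mknk2, Rps6ka3, the Elk genes, Srf, Ier5l, Atf3, Nr4a3 and Chd4) and the neighbours of Egr2 and Nab2 were named after their values were seen. Some genes that the rule takes are left out.

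Tested on simulated data of 2 arrays, 175 of 175 measured changed genes passed 2-fold in the right direction, against 0 of 20031 unchanged genes. Each probe stood as a gene, all planted changes were larger than 2-fold and the noise was a small, even spot noise. The outcome was therefore nearly fixed in advance and checks the calculation only. It says nothing of smaller differences, dim signals or differences between cultures. The alternatives were other scalings, normexp background correction with an offset of 50, other filters on dim probes, spots with outlier marks left out, other summaries over probes, a floor of 5.0, the authors' table and a 3-fold threshold. Python 3.11.15 (numpy 2.4.6, pandas 2.3.3, scipy 1.17.1, matplotlib 3.10.9) and R 4.3.3 with limma 3.58.1 were used.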

Additional observations from a re-analysis of the deposited data

How the results depend on the processing

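The count of members past 2-fold towards array A, 2 as reported, was 4 with each array scaled to its median, 3 with normexp background correction, 1 with a looser filter and 1 at a 3-fold threshold, and 2 otherwise. With no filter on dim probes the 2 were a different pair, Egr2 and Egr3, out of 9 genes with a value. Nab2 fell to 0.67 there, and the 1.58 of Egr3 was taken over a surrogate signal on array B. Under each alternative 0 members were past 2-fold towards array B. Over all genes, the counts towards array A and array B, 570 and 1082 as reported, were 1313 and 587 with median scaling, 385 and 707 with normexp, 949 and 1902 with the looser filter, 1491 and 2777 with no filter, and 156 and 333 at 3-fold. Array A thus held 34.5% of the calls as reported, 69.1% with median scaling and 26.2% to 41.7% under the other settings of scaling, filter and summary. The medians of the Ras-ERK and NuRD lists were negative in each case except median scaling, where they were 0.23 and 0.21, and that of SRF and its cofactors was negative throughout, between −0.67 and −0.15. Only with no filter did the dim factors take a value, with differences of −0.25 for Egr1, 1.58 for Egr3 and −0.18 for Egr4, and all of these signals but that of Egr3 on array A were surrogates. For the Egr targets, 3 past 2-fold towards array A and 1 towards array B as reported, the counts were 3 and 3 with no filter, where the median was 0.04, 3 and 2 with the looser filter, 4 and 0 with median scaling, 3 and 0 with quantile scaling or normexp, and 0 and 0 at 3-fold. The serum-response count of 11 towards array A was 16 with median scaling, 7 with normexp and 3 at 3-fold. The NuRD count of 1 fell to 0 with quantile scaling, with the 75th percentile of bright probes and at 3-fold. The Ras-ERK count of 0 towards array A rose to 1 when the brightest probe of each gene was taken. No paired analysis was possible because there was 1 array per cell line. The number of arrays limits the precision, and the cell line on each array was not settled by the deposited data.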
